A study of Danio rerio with 6 samples.

Results

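Myelin and glial genes were followed in zebrafish (Danio rerio) cells sorted for a sox10:dsRed reporter. The group holds 7 rows of a table of 27726 genes, fixed by Ensembl identifier: the structural myelin genes mbpa (ENSDARG00000036186), mpz (ENSDARG00000038609) and plp1b (ENSDARG00000011929), the transcription factors egr2b (ENSDARG00000042826) and olig2 (ENSDARG00000040946), and the radial glial genes gfap (ENSDARG00000025301) and fabp7a (ENSDARG00000007697). All 7 were present, and the gene name table pairs each identifier with that zebrafish symbol or with its human counterpart. Of the 6 libraries, 3 came from Shoc2-/- larvae made with CRISPR/Cas9, whose titles carry the mark D22, and 3 came from wild-type larvae. Both groups carry the reporter and were taken 6 days post fertilization. The labels give neither the lesion in shoc2 nor how many larvae went into a library, and do not say whether replicates came from separate clutches, so the spread between libraries may be partly technical. Shoc2 is a scaffold of the RAS-ERK pathway, and the study asked which transcripts change when it is lost.

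Myelin is the membrane sheath that glia wrap around axons. Schwann cells, which descend from the neural crest, make it in peripheral nerves, and oligodendrocytes make it in the brain and spinal cord; sox10 is active in both lineages, so a sox10 reporter can mark both. Myelin basic protein compacts the inner faces of the membrane, protein zero (mpz) holds the outer faces together, and the product of plp1b spans the membrane. In mammals protein zero belongs to peripheral myelin, whereas in fish oligodendrocytes make it too. Egr2 (Krox20) is the transcription factor that drives myelination in Schwann cells, and its gene also marks hindbrain segments in the embryo. Olig2 specifies motor neuron and oligodendrocyte precursors. Glial fibrillary acidic protein, an intermediate filament, and the brain fatty acid binding protein fabp7 mark radial glia, the neural stem cells and astrocyte counterparts of fish.

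The 6 libraries held 20088591 to 21802683 reads in genes. Values are given as normalized counts, meaning reads per gene that the authors scaled by a single factor in each library. The shoc2 transcript (listed as SHOC2) was at 844, 798 and 673 normalized counts in mutants, against 1194, 959 and 1083 in wild type. It was lower in mutants without overlap, as were 5.28% of all genes tested, and its limma adjusted p was 0.636. The transcript of sox10, on whose reporter the cells were sorted, was at 13953, 30211 and 27904 in mutants and 25782, 8573 and 14620 in wild type. It varied 3.52-fold between libraries and the groups overlapped. No library was a repeat of another.

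Among the structural genes, mbpa had 10739.6, 19519 and 15004 normalized counts in the mutant libraries, against 33409, 12621 and 14838 in the wild-type libraries. Wild-type replicate 1 stood above all others, and without it the wild-type values lay inside the mutant range. The means were 15088 ± 4390 in mutants and 20289 ± 11416 in wild type (SD, n = 3 each), and the log2 fold change was -0.33 with a 95% interval from -1.12 to 0.46. Leaving out wild-type replicate 1 turned it to 0.10.

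The mpz transcript had 4237, 10702 and 6313 normalized counts in mutants, against 5852, 1225 and 2274 in wild type. The highest value was mutant replicate 2 and the lowest wild-type replicate 2, 8.74-fold apart, and only wild-type replicate 1 reached into the mutant range. The means were 7084 ± 3301 in mutants and 3117 ± 2426 in wild type (SD, n = 3 each). The log2 fold change of mpz was 1.38 (SE 0.52, 95% interval 0.20 to 2.56), the largest of the 7, with a limma adjusted p of 0.779. It was 1.98 without wild-type replicate 1 and 0.85 without wild-type replicate 2.

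The plp1b transcript ran 3151, 8124 and 5051 in mutants, against 5133, 1221 and 2177 in wild type, in the same order of libraries as mpz except that wild-type replicate 1 passed mutant replicate 3. Averages were 5442 ± 2509 in mutants and 2844 ± 2039 in wild type (SD, n = 3 each). The log2 fold change came to 1.08 (SE 0.49), its 95% interval reached down to -0.03, and limma's adjusted p was 0.864. It was 1.63 without wild-type replicate 1 and 0.60 without wild-type replicate 2.

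Of the transcription factors, egr2b was the only one of the 7 genes whose groups did not overlap. This is near the share over all genes tested, 10.6%. The egr2b transcript had 1466, 2413 and 1970 normalized counts in mutants, against 5774, 2614 and 3019 in wild type. Every mutant library was under every wild-type one, with the nearest pair, mutant replicate 2 and wild-type replicate 2, close together and wild-type replicate 1 far above. Averages were 1949.6 ± 474 in mutants and 3802 ± 1719 in wild type (SD, n = 3 each). The log2 fold change of -0.90 (SE 0.29, 95% interval -1.57 to -0.24) had a limma adjusted p of 0.655, and DESeq2 gave 0.146. Without wild-type replicate 1 the log2 fold change was -0.56.

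For olig2 the mutant libraries held 365, 893 and 393 normalized counts and the wild-type libraries 468, 252 and 274. Mutant replicate 2 was far above all other libraries, and wild-type replicate 1 lay above the other 2 mutant libraries. The log2 fold change was 0.66 (SE 0.36, 95% interval -0.16 to 1.48; limma adjusted p 0.919), and 0.25 without mutant replicate 2.

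The radial glial genes showed the smallest differences. The gfap transcript had 327, 511 and 226 normalized counts in mutants, against 269, 265 and 306 in wild type, so the mutant values enclosed the wild-type ones. Its log2 fold change was 0.26 with a 95% interval from -0.36 to 0.89, and -0.04 without mutant replicate 2. The fabp7a transcript had 5793, 3722 and 3091 in mutants, against 3363, 4022 and 3812 in wild type, again with the wild-type values inside the mutant range. Its log2 fold change was 0.12 with a 95% interval from -0.36 to 0.60, and -0.13 without mutant replicate 1. Both genes varied little among wild-type libraries (coefficients of variation of 8.10% for gfap and 9.02% for fabp7a) and more among mutants (40.9% and 33.6%). The structural genes and egr2b spread more among wild-type libraries, from 45.2% for egr2b to 77.8% for mpz, than among mutants, where they lay between 24.3% for egr2b and 46.6% for mpz. For olig2 it was 54% among mutants and 35.9% in wild type. With n = 3, single libraries weigh heavily on these values, such as wild-type replicate 1 for mbpa and egr2b and mutant replicate 1 for fabp7a.

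**Figure D1:**
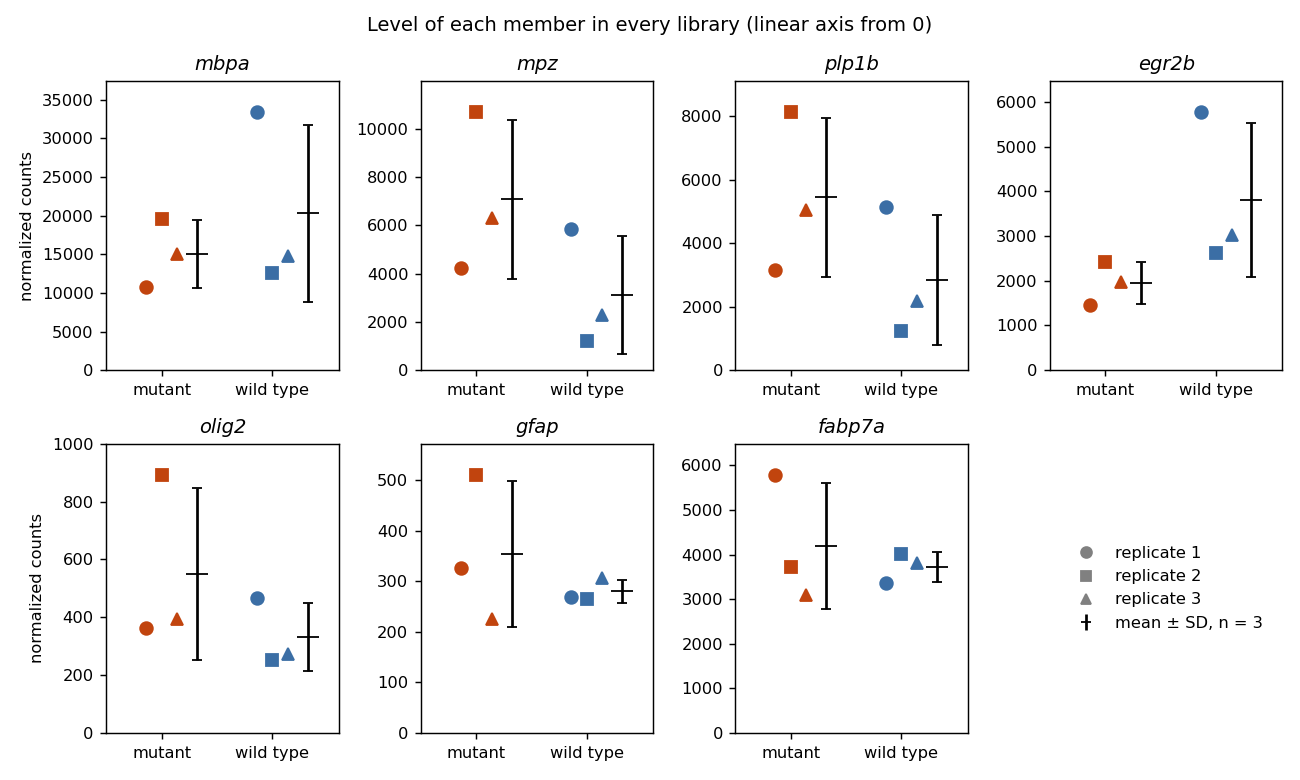
Normalized counts of the 7 genes in each library (symbols by replicate number), mutant at the left and wild type at the right of each panel, with the mean ± SD (n = 3) in black. Wild-type replicate 1 is the highest library for mbpa and egr2b, mutant replicate 2 for mpz, plp1b, olig2 and gfap, and only in egr2b do the 3 mutant values all lie under the 3 wild-type ones.

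None of the 7 genes passed an adjusted p of 0.05 in limma, fitted on all 20463 genes with sufficient values, where 1 gene or 0.00489% passed. With edgeR's quasi-likelihood test on recovered reads it was 0 of the 7 and 0% of all genes, and with DESeq2 it was 0 of the 7 and 0.757% of all genes. At limma's unadjusted p under 0.05 there were 2 of the 7, against 5.8% of all genes: mpz, higher in mutants as were 2.88% of all genes, and egr2b, lower as were 2.91%. By edgeR 1 of the 7, egr2b, passed this threshold, against 6.02% of all genes. The count was also 1 in DESeq2, against 1313 of the 20463 genes, and in limma without the variance trend, against 1227. The unadjusted p of mpz was 0.0577 in edgeR, 0.122 in DESeq2 and 0.0663 in limma without the trend. Over all genes the groups did not overlap in 10.6%, which is 5.29% higher and 5.28% lower in mutants. They did not overlap in 1 of the 7, egr2b, which is near that share. Without wild-type replicate 1 this count became 4 of the 7 (mpz, plp1b and olig2 joined egr2b), against 23.1% of all genes. It became 2 without mutant replicate 1, against 22.2%, and 2 without mutant replicate 3, against 20.6%. The median log2 fold change was 0.26 over the 7 genes and 0.0078 over all genes tested. All 7 passed the filter on low values. The thinnest value, 239 reads of olig2 in wild-type replicate 2, has a counting error of 6.47%. For gfap in wild type the counting errors of 5.74% to 6.31% were close to the spread between libraries. In bulk RNA from sorted cells, fewer cells of a type and less RNA per cell cannot be told apart.

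**Figure D2:**
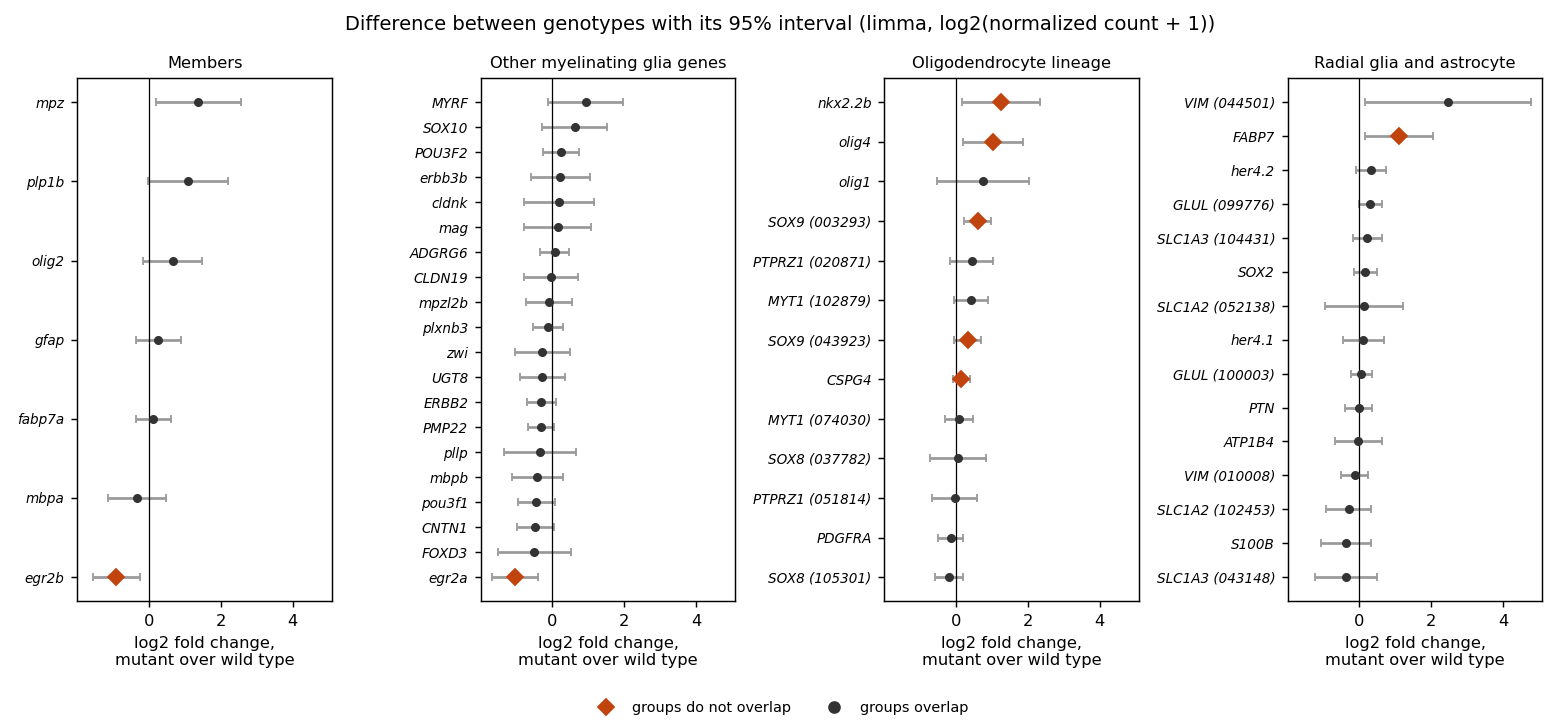
Log2 fold change, mutant over wild type, on the log2(normalized count + 1) scale with its 95% interval from limma for the 7 members and for 3 lists of other glial genes, of which 1 gene is not drawn; the numbers in brackets are the last digits of the Ensembl identifier where a symbol stands for more than 1. The members run from -0.90 for egr2b to 1.38 for mpz, and orange diamonds mark genes whose 3 mutant and 3 wild-type values do not overlap.

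The 7 genes did not share 1 profile across the 6 libraries. Likeness was measured as the root mean square difference between profiles of log2(normalized count + 1), each centred on its own mean, so that 0 means the same pattern. The most alike pair was mpz and plp1b, 0.16 apart, and each was the other's nearest member. The next was mbpa and egr2b at 0.30, again nearest to each other, then gfap and fabp7a at 0.40. The profile of olig2 lay nearest to gfap (0.42) and almost as near to plp1b (0.44). The structural genes did not form a single set: mbpa was 0.90 from mpz and 0.75 from plp1b, and egr2b was 1.20 from mpz, the widest gap among the 21 pairs.

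Centred on its mean, mbpa stood at 1.02 in wild-type replicate 1, and the remaining libraries lay between -0.61 and 0.25. The mpz profile ran instead from 1.39 in mutant replicate 2 to -1.74 in wild-type replicate 2, with wild-type replicate 1 at 0.52. Of 20 other myelinating glia genes that averaged 50 normalized counts or more, 18 (90.0%) were nearer to mbpa than to mpz, but so were 98.5% of 16691 genes at that level, since a gene with a flat profile is also nearer to mbpa, which varied less. The 2 nearer to mpz were MYRF and SOX10. Within 0.2 of mbpa, a distance chosen after the values were seen, lay 5 of the 20, against 0.359% of all genes. The paralogue mbpb was 0.10 from mbpa and 0.96 from mpz. These and the further genes in this paragraph that had no place in the naming rule were chosen after their values were seen. The gene zwi, which encodes a myelin protein of fish, was 0.07 from mbpa. MYRF, the transcription factor that drives myelin genes in oligodendrocytes, was 0.38 from mpz and 0.71 from mbpa. It had 1136, 3981 and 1626 normalized counts in mutants, against 1718, 659 and 948 in wild type, with a log2 fold change of 0.92 and a limma adjusted p of 0.905.

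**Figure D3:**
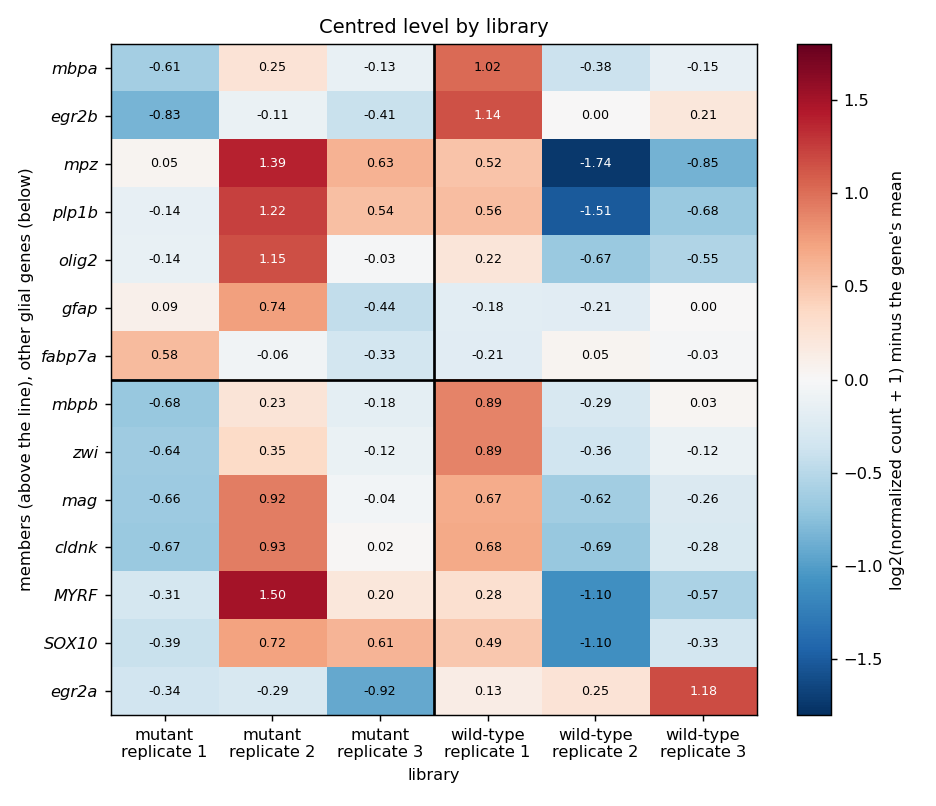
Log2(normalized count + 1) minus the gene's own mean in each library (columns, mutants at the left), for the 7 members above the line and 7 other glial genes below it. In mbpa, egr2b, mbpb and zwi wild-type replicate 1 is the highest library. The genes mpz, plp1b, olig2, MYRF, SOX10 and cldnk are highest in mutant replicate 2 and lowest in wild-type replicate 2.

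Among the 16695 other genes that averaged 50 normalized counts or more, those most like the averaged profile of mbpa, mpz and plp1b were NINJ2 (0.10), LGI3 (0.15), si:ch211-80h18.1 (0.16), wnt3 (0.16) and dhrs12la (0.17), over 6 libraries. That average joins unlike profiles, since mbpa itself lay 0.55 from it, mpz 0.35 and plp1b 0.20. Taken gene by gene, which was added after the values were seen, the genes with symbols nearest to mbpa were CRYAB (0.06) and zwi, and the nearest to mpz was plp1b. Nearest to egr2b came fxyd5 (0.11) and CASKIN2 (0.13), to olig2 TPPP (0.07), to gfap RTN4RL1 (0.08) and to fabp7a KATNAL1 (0.03).

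The members were also compared as ratios within each library, where the scaling of the library cancels. This comparison was added after their values were seen. A ratio here serves only to compare libraries; transcript lengths were not used, so it does not rank the genes by level. The ratio of mpz to mbpa was 0.394, 0.548 and 0.421 in mutants, against 0.175, 0.0970 and 0.153 in wild type. All mutant ratios were above all wild-type ones, with a log2 difference of 1.71, or 3.27-fold. The ratio of plp1b to mbpa was 0.293, 0.416 and 0.337 in mutants, against 0.154, 0.0968 and 0.147 in wild type, again without overlap and with a log2 difference of 1.41. The ratio of olig2 to mbpa was 0.0339, 0.0458 and 0.0262 in mutants, against 0.0140, 0.0200 and 0.0185 in wild type, a log2 difference of 0.99. The ratio of egr2b to mbpa ran the other way, with 0.136, 0.124 and 0.131 in mutants, against 0.173, 0.207 and 0.203 in wild type, a log2 difference of -0.57. The ratios of gfap and fabp7a to mbpa overlapped.

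In all, 4 of the 6 other members did not overlap in their ratio to mbpa, against 4.7% of all 20462 genes, of which 4.22% were higher and 0.479% lower in mutants. The same 4 were without overlap in undivided values once wild-type replicate 1 was left out, against 23.1% of all genes. That library was the highest for mbpa, the gene divided by. The log2 fold change of mbpa was -0.33, so each log2 difference in this scale is that much higher than the member's own log2 fold change. A higher ratio without overlap was not particular to the members. Among the gene lists described below, it was seen in 6 of 21 other myelinating glia and 5 of 13 oligodendrocyte lineage genes. For cartilage it was 5 of 6, with both SOX9 identifiers in this list and the previous one. It was 1 of 15 for radial glia and 0 of 11 for neurons. The radial glia gene was the VIM identifier ENSDARG00000044501, and the oligodendrocyte lineage genes included nkx2.2b. Neither would have passed the filter without its high mutant values, so the filter favoured their being counted here. A difference without overlap has an exact permutation p of 0.1 for 3 against 3 libraries, which is the smallest this design allows. limma across all such ratios called 0.0684% of all genes and none of the 6, and gave an adjusted p of 0.873 for mpz and 0.967 for plp1b, egr2b and olig2. In that fit all genes share the spread of mbpa between libraries, so that standard errors of the members were between 0.58 and 0.61.

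Set against SOX10 in the same library, also added afterwards, mbpa and egr2b were without overlap. Dividing by the same gene leaves the order of the members' log2 differences as it was. SOX10 itself had a log2 fold change of 0.62, and its groups overlapped. Each log2 difference in this scale is lower than the member's own log2 fold change by that amount. Undivided, mbpa had a log2 fold change of -0.33 and its groups overlapped. The ratio of mbpa to SOX10 was 0.770, 0.646 and 0.538 in mutants, against 1.30, 1.47 and 1.02 in wild type, without overlap and with a log2 difference of -0.95. That of egr2b was 0.105, 0.0799 and 0.0706 in mutants, against 0.224, 0.305 and 0.207 in wild type, a log2 difference of -1.52. The ratios of mpz and plp1b to SOX10 overlapped through wild-type replicate 1 and mutant replicate 3, with log2 differences of 0.76 and 0.46. Thus 2 of the 7 did not overlap, both lower, against 4.07% of all genes, of which 3.83% were lower. This count was 4 without wild-type replicate 1, against 35.1% of all genes, and 4 without mutant replicate 3, against 4.95%. None of the 7 had a limma adjusted p under 0.05 in this scale, where 0.152% of all genes did. A lower ratio to SOX10 without overlap was also seen in 8 of 20 other myelinating glia genes, and in 0 of 13 oligodendrocyte lineage genes.

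**Figure D4:**
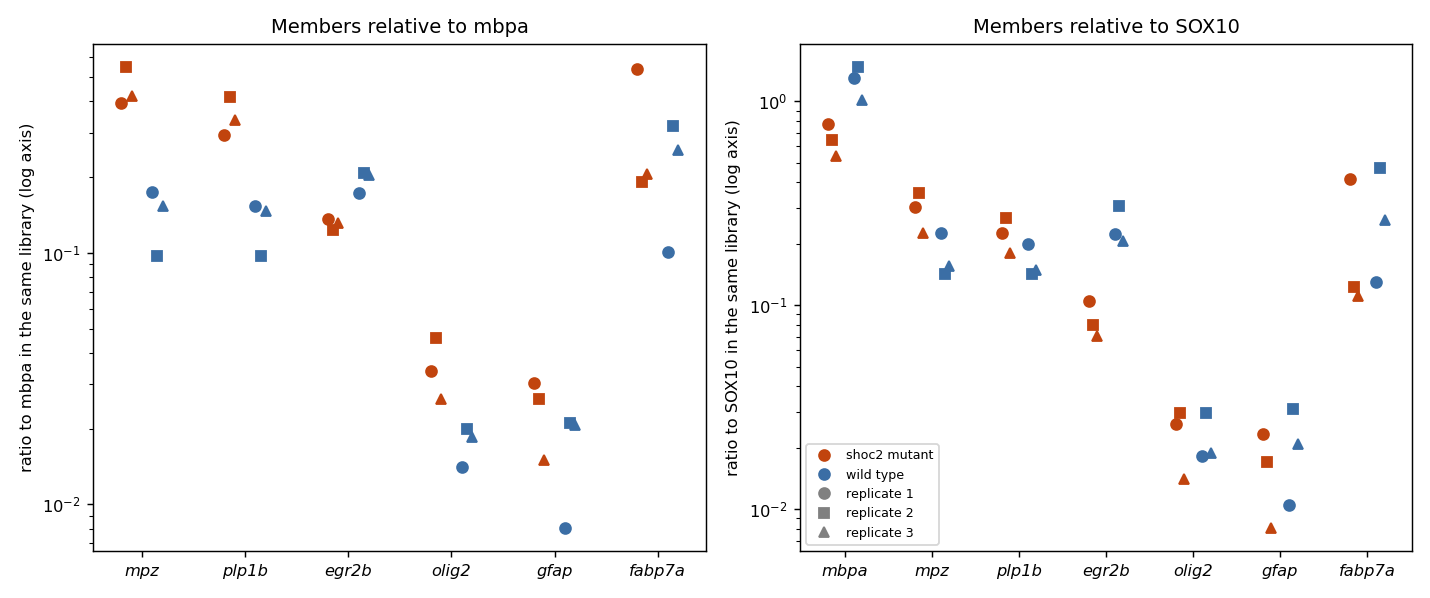
Ratio of each member to mbpa (left panel) and to SOX10 (right panel) in the same library on log axes, mutants in orange to the left and wild type in blue to the right of each gene, symbols by replicate. Relative to mbpa, mpz, plp1b and olig2 are higher and egr2b lower in all 3 mutant libraries; relative to SOX10, mbpa and egr2b are lower in all 3.

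Other glial genes were taken from 3 lists. None of their genes passed the adjusted threshold in limma or in edgeR, and 1 passed in DESeq2, where 0.757% of all genes did. At an unadjusted p under 0.05 in limma there were 0 higher and 1 lower in the first list, and 3 higher and 0 lower in the second. The third had 2 higher and 0 lower. Over all genes the shares were 2.88% higher and 2.91% lower, and the 1 of 21 in the first list is near its share. The higher genes include nkx2.2b in the second list and the VIM identifier ENSDARG00000044501 in the third. Neither would have passed the filter without its high mutant values, so the filter favoured their being counted as higher. In the list of other myelinating glia genes, 21 of 23 symbols were matched and all 21 were tested. Their log2 fold change was positive in 7 and negative in 14, with a median of -0.24 against 0.0078 over all genes, and the groups did not overlap in 1, a smaller share than the 10.6% of all genes. That gene was egr2a, the paralogue of egr2b, with 2554, 2658 and 1711 normalized counts in mutants, against 3541, 3843 and 7334 in wild type. The log2 fold change of egr2a was -1.03 (SE 0.28), for which limma gave an adjusted p of 0.520 and DESeq2 0.0320. The high library was wild-type replicate 3 for egr2a and wild-type replicate 1 for egr2b, and their profiles differ in this. How reads shared by the paralogues were counted is not known, as the counting options are not stated. The same holds for mbpa with mbpb and fabp7a with its paralogue. FOXD3, a neural crest factor kept in early glia, had a log2 fold change of -0.51, and SOX10 had 0.62; the groups overlapped in both.

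In the oligodendrocyte lineage list, 9 of 10 symbols gave 13 identifiers, 10 with a positive and 3 with a negative log2 fold change, and a median of 0.33. The groups did not overlap in 5, all higher in mutants, against 5.29% of all genes. They were olig4, nkx2.2b, CSPG4 and both identifiers listed as SOX9. Of these, nkx2.2b would not have passed the filter without its high mutant values, so its place in this count is partly fixed by the filter. Both SOX9 identifiers came from the listed symbol sox9b, matched by its human symbol, and both are also counted under cartilage. The olig4 transcript, a relative of olig2, had 41.6, 51.3 and 35.4 normalized counts in mutants, against 17.3, 22.2 and 21.2 in wild type, and nkx2.2b, whose protein acts with Olig2 in oligodendrocyte precursors, had 22.2, 20.5 and 25.2 in mutants, against 9.62, 6.33 and 11.1 in wild type. Their log2 fold changes were 1.04 and 1.26, with limma adjusted p-values of 0.726 and 0.779. The more abundant SOX9 identifier (ENSDARG00000003293) had 9415, 11284 and 12093 in mutants, against 8862, 5897 and 6996 in wild type, and SOX9 is a cartilage factor as well. The other SOX9 identifier and CSPG4 differed little, with log2 fold changes of 0.33 and 0.15. PDGFRA, whose groups overlapped, had -0.14. The olig1 transcript overlapped, with 33.8, 106 and 23.3 in mutants and 37.5, 22.2 and 20.2 in wild type.

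In the radial glia and astrocyte list, 12 of 14 symbols gave 16 identifiers, of which 15 were tested. Log2 fold changes were positive in 9 and negative in 6, with a median of 0.12, and 1 of the 15 did not overlap, a smaller share than the 10.6% of all genes. That was the other identifier listed as FABP7 (ENSDARG00000034650), with 34.8, 35.9 and 49.4 normalized counts in mutants, against 13.5, 15.8 and 27.3 in wild type, a log2 fold change of 1.09 with a limma adjusted p of 0.780. The low-count VIM identifier ENSDARG00000044501 had 17.4, 22.6 and 22.4 in mutants and 19.2, 0 and 2.02 in wild type, and its groups overlapped. S100B, a calcium-binding glial protein, had 198, 264 and 215 in mutants, against 489, 214 and 232 in wild type, and lay 0.15 from mbpa.

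Markers of other cell types differed between the same libraries, and their part in the glial values was not tested. For cartilage, all 6 identifiers, which include both SOX9 ones, were higher in mutants without overlap, against 5.29% of all genes, and their summed level was 396247 to 528132 normalized counts in mutants and 196964 to 289472 in wild type. A single identifier made up most of this sum in every library. The cartilage sum was highest in mutant replicate 2 and lowest in wild-type replicate 2, as were mpz, plp1b and olig2. So was SOX10, on whose reporter the cells were sorted. The summed level of 7 skeletal muscle identifiers was 6779 to 49471 in mutants and 3779 to 23813 in wild type, with overlap in each. That of 4 skin identifiers was 35303 to 60639 in mutants and 41386 to 130968 in wild type. For neurons, 11 identifiers summed to 13949.9 to 22039 in mutants and 12540.0 to 17869.9 in wild type. The 4 leukocyte identifiers summed to 931 to 2162 in mutants and 2033 to 4240 in wild type, and the 11 pigment cell identifiers to 15311 to 27505 in mutants and 14752 to 17743 in wild type. The leukocyte sums overlapped, as did ptprc, CORO1A and LCP1, with log2 fold changes of -0.24, -0.43 and -0.40. Only the remaining leukocyte identifier was lower in mutants without overlap, against 5.28% of all genes. No marker in these 6 lists was at 0 in any library.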

How the data were processed

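The authors' deposited values are a signal in normalized counts: whole reads per gene, each library scaled by its own factor, which held for 100% of values to within 0.001 reads. The submitters' processing notes name FastQC 0.11.7, STAR 2.6, Cuffnorm and GRCz11, without roles. The deposited values are labelled as htseq normalized counts. Counting and strand options and the size factor method are not given in the sources used here. Symbols came from a name table that held 25324 of 27726 identifiers. No positions or sequences were used. Some genes are not reported here; counts over lists include them.

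Values were taken as log2(normalized count + 1), and genes with at least 10 normalized counts in at least 3 libraries were kept (20463). The test of mutants against wild type was limma 3.58.1 (mean-variance trend, no covariates) in R 4.3.3, two-sided, with Benjamini-Hochberg adjustment over all genes and a threshold of 0.05. Since reads could be recovered, edgeR 4.0.16 (quasi-likelihood, TMM) and DESeq2 1.42.0 were run on them as alternatives. Further alternatives were pseudocounts of 0.1 and 8, other filters (none, or a mean of at least 50), other scalings, limma without a trend, a block for the replicate number, and omission of each library in turn. The tests were tried on simulated data with known changes.

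The members and lists were chosen with earlier results of these data known, and list symbols were matched exactly, then by the human symbol. All members were named; from each list up to 4 genes with the largest changes could be, and any others were chosen after their values were seen. Fold changes on this scale understate the change of low genes. Counting errors are Poisson errors of the recovered reads and cover nothing else.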

Additional observations from a re-analysis of the deposited data

How the results depend on the processing

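No member passed the adjusted threshold under any of the 16 alternatives, and mpz, plp1b, egr2b and olig2 kept their direction under all of them. The adjusted p of egr2b ran from 0.146 in DESeq2 to 1.00, and that of mpz from 0.334 to 1.00. The number of genes called over the whole table, 1 in the main setting, was 3 without the filter, 0 without the variance trend, 0 in edgeR (with 1232 genes at an unadjusted p under 0.05) and 155 in DESeq2. It was 0 with the replicate block, with 906 genes at an unadjusted p under 0.05, and between 0 and 4 when any library was omitted. No likeness was seen between libraries of equal replicate number. The deviations of same-numbered libraries from their genotype means had correlations across genes from -0.202 to -0.0288, and 0 of the 6 libraries correlated best with its own number. Mutant replicates 1, 2 and 3 correlated best with wild-type replicates 2 (0.271), 3 (0.173) and 1 (0.311). With 3 libraries a group such deviations are tied to each other, so they cannot tell whether any libraries shared a clutch or sort. With a library left out, the log2 fold change ran from -0.60 to 0.10 for mbpa, from -0.042 to 0.55 for gfap and from -0.13 to 0.32 for fabp7a. Leaving out a library, which cannot create overlap and so cannot lower these counts, gave from 1 to 4 members without overlap, against 18% to 23.1% of all genes. It gave from 4 to 5 in the ratio to mbpa, against 5.8% to 17.5%, and from 2 to 4 in the ratio to SOX10, against 4.95% to 50.8%; without mutant replicate 1 the last was 3 members, against 50.8%. The log2 ratio to mbpa ran from -0.048 to 0.78 for fabp7a, and the log2 ratio to SOX10 from -0.17 to 0.36 for olig2 and from -0.79 to 0.073 for gfap. Why these results moved was not tested. The scaling moved the median of all genes to -0.0022 with TMM and 0.0137 with equal totals. With 3 libraries a group, the spread between libraries limits what could be detected for these genes more than read depth does, except for wild-type gfap, where both are of similar size.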
